A study of Mus musculus with 34 samples.

Results

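The genes described here are the clustered histone genes of the mouse: every gene whose symbol places it in histone cluster 1 to 4 and in class H1, H2A, H2B, H3 or H4, pseudogene symbols left out. These members make 68 of the 37145 genes listed for cell cultures and 70 of the 46785 listed for embryo sections, where 1 symbol, Hist2h2bb, stands under 2 identifiers. In the section tables they divide into 6 H1, 20 H2A, 19 H2B, 12 H3 and 13 H4 genes. Cluster 1 on chromosome 13 holds 56 of them, cluster 2 on chromosome 3 holds 11, cluster 3 on chromosome 11 holds 2 and cluster 4 on chromosome 6 holds 1.

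Clustered histone genes supply the histones that package newly copied DNA, and their transcription is tied to S phase. Their mRNAs are unusual in that they normally end, without a poly(A) tail, just after a short stem-loop that is bound by Slbp, the stem-loop binding protein; cleavage there needs the U7 small nuclear ribonucleoprotein. A library made from polyadenylated RNA is therefore expected to hold little of them, although polyadenylated forms of some of these genes are known in differentiating cells.

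The study examined the long noncoding RNA Evx1as in embryonic patterning. Cultures were mouse embryonic stem cells of strain 129S1/SVImJ taken at day 4 after withdrawal of LIF, the cytokine that holds such cells undifferentiated: 3 libraries of the wild-type line CJ9 and 3 of a line labelled 4x polyA KI, called knock-in below, for which the labels name no clone. Their RNA was selected on mRNA beads. Sections were laser-captured from C57/B6 embryos at embryonic day 7, either Evx1as+/- (heterozygous) or Evx1as-/- (homozygous), and their RNA was sequenced by Geo-seq, which is made for a few captured cells: 6 heterozygous and 5 homozygous pieces of primitive streak, 3 and 5 of mesoderm, and 1 anterior epiblast piece per genotype. There were no wild-type embryos. Streak and mesoderm pieces carry a layer number from 1 to 11. No label says which embryo a piece came from, so pieces may share one and the p-values over them are too small. The labels also do not state that the culture libraries come from separate cultures, so those p-values measure only the spread between these libraries.

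Values are FPKM, fragments per kilobase of transcript for a fixed number of mapped fragments, and read depth is unknown. Members took 0.412% to 0.704% of all FPKM in the 6 cultures and 0.271% to 0.884% in the 19 streak and mesoderm sections. The libraries listed 12758 to 13073 genes at 1 FPKM or more in cultures and 6806 to 10959 in sections. Evx1as, listed as 5730457N03Rik, stood at 5.26 ± 1.14 FPKM (SD, n = 3) in wild-type and 0.0947 ± 0.0370 FPKM (SD, n = 3) in knock-in cultures; in sections it reached 4.57 FPKM in a heterozygous streak piece and was at most 0.159 FPKM in homozygous ones. The homozygous streak piece of layer 9 stood apart, with a summed member level of 2353 FPKM against 926 to 1256 FPKM in the other 4.

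The letters that set these mRNAs apart were looked for in the transcripts of GENCODE release M21, which use the same build (GRCm38, mm10) as the section tables. Of the 70 section members, 67 were matched by identifier and all 67 overlapped the deposited position. The stem-loop, searched on the transcript strand as GG, any 2 bases, CTTTT, any base, AG, any 2 bases and CC, was present in 42 of the 67, against 0.161% of all genes in that annotation. In the other 25 these letters are not in the annotated transcript. The sites below, with the stem-loop in capitals, are those of the 2 most abundant members and of members named in the comparisons that follow.
Hist1h2ao: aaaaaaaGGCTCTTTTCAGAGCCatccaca
Hist1h2ap: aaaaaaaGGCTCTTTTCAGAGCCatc
Hist1h2ac: acccaaaGGCTCTTTTCAGAGCCcccactt
Hist1h2bk: caccaaaGGCTCTTTTAAGAGCCactaaac
Hist3h2ba: acccaaaGGCTCTTTTCAGAGCCaccttcc
Hist1h3c: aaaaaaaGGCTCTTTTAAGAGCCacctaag
Hist1h1e: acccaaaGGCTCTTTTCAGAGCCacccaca
Hist1h4d: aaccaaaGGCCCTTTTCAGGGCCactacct

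The H4 genes carried letters of their own. All 11 H4 genes with a match had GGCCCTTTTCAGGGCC (7 genes), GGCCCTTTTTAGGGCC (2 genes) or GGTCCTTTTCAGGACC (2 genes). The letters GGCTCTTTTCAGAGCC stood in 10 H2A, 6 H2B, 5 H3 and 3 H1 genes, and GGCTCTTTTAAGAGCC in 3 H3, 2 H2B and 1 H1 genes. Hist1h2ao and Hist1h2ap have in addition a run of A directly before the stem-loop. Counting A in every window of 20 bases of the transcript, each reaches 16, against 13 in Hist1h2ae and 11 in Hist1h2ag, 2 other H2A genes among the most abundant. Hist1h2ac, whose longest annotated transcript runs 2010 bases past the stem-loop, reaches 17 in a window downstream of it. These windows, in capitals with 5 bases on each side, read as follows.
Hist1h2ao: ctcacCCGAAAAGAAAAAAAAAAAAggctc
Hist1h2ap: ctcacCCGAAAAGAAAAAAAAAAAAggctc
Hist1h2ae: cttctAATCTCGTAAAAAAAACAAAggctc
Hist1h2ag: accacAAGGCCAAGGGGAAATAAAAccctt
Hist1h2ac: cccctAGGAGAAAAAAAAAAAAAAAgttct

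With all classes pooled, the number of A in the richest window was hardly related to the level. Spearman's rho with the mean FPKM was -0.09 over 65 members in cultures and 0.07 over 67 members in sections. It is a description across genes that share libraries and sequence. Classes differ in transcript length, and rho within H2A was not computed. By mean FPKM in sections, Hist1h2ap, Hist1h2ao, Hist1h2ac and Hist1h2ae (16, 16, 17 and 13 A) ranked 1, 2, 4 and 5 of all members. Hist1h2ag, with 11 A, ranked 3. In cultures these genes ranked 2, 1, 12, 10 and 9 in the same order. Many members cannot be told apart by short reads. Of the distinct 50-base stretches in the annotated transcripts of Hist1h2ao and Hist1h2ap, 93.5% and 93.1% also occur in another gene. The median of this share was 73.2% over 20 H2A genes, 62.0% over 12 H3, 51.7% over 16 H2B, 39.5% over 13 H4 and 1.13% over 6 H1 genes. How the authors divided such reads is not stated, so the split among H2A genes is uncertain and the sum over the class stands beside it.

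H2A genes made up nearly all of the member signal in cultures. Summed over the class, H2A stood at 2027 to 3880 FPKM in the 6 cultures, 97.2% to 97.9% of all members. H2B summed to 15.0 to 38.1 FPKM, H3 to 8.68 to 30.9 FPKM, H4 to 14.1 to 30.04 FPKM and H1, the linker histones, to 2.22 to 5.94 FPKM. H2A was higher than every other class in all 6 libraries.

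In sections H2A was again the leading class, with 677 to 2110 FPKM in the 19 streak and mesoderm pieces, but its share ran from 71.3% to 95.6%. H4 followed with a median of 52.4 FPKM (10.4 to 124), then H3 with 43.0 FPKM (11.1 to 98.3). H2B had a median of 31.1 FPKM (10.7 to 101) and H1 a median of 14.8 FPKM (4.08 to 75.5). H2A thus stood above each other class in every section, while the ranges of the other 4 classes overlapped. Levels in cultures and sections come from tables made with different gene models and are set side by side only.

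**Figure D1:**
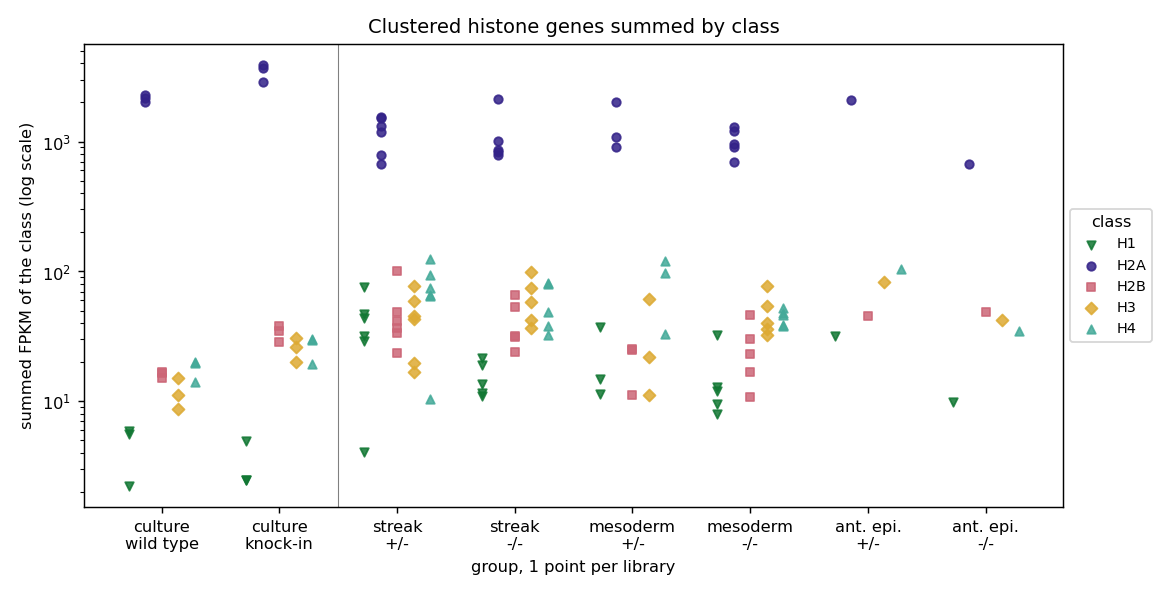
Summed FPKM (log scale) of the clustered histone genes of each class in every culture and section; each point is 1 library and colour and shape mark the class. H2A lies at 673 FPKM or more in every library shown and the other classes lie at or below 124 FPKM.

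Counting a member as present in a group at 1 FPKM or more in at least 50% of its libraries, 31 of 68 were present in wild-type and 44 of 68 in knock-in cultures. Over all genes, 12758 to 12899 reached 1 FPKM in a wild-type and 12855 to 13073 in a knock-in library. Many members lie near 1 FPKM, and the member counts move with the limit, as given in the closing section. In sections the count of members was 39 of 70 in heterozygous and 36 in homozygous streak, 37 and 32 in mesoderm, and 38 and 35 in the lone anterior epiblast pieces. Over all genes, 6806 to 10959 reached 1 FPKM in a heterozygous and 9488 to 10559 in a homozygous streak piece. In mesoderm these ranges were 7025 to 8057 and 8420 to 9403, and the epiblast pieces had 8344 and 9577. Groups hold from 1 to 6 libraries, so the 50% rule is not equally strict and the counts are not like for like. By class, wild-type cultures held 14 of 19 H2A, 7 of 13 H4, 4 of 18 H2B, 4 of 12 H3 and 2 of 6 H1 genes. Knock-in cultures held 15 H2A, 9 H4, 10 H2B, 9 H3 and 1 H1 genes.

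Clusters differed between the materials. Of 9 cluster 2 genes in the culture tables, 0 were present in wild-type and 2 in knock-in cultures, and in streak and mesoderm 5 to 6 of 11 were present in each group. The 2 genes of cluster 3, Hist3h2a and Hist3h2ba, were present in every group. Hist4h4, the only gene of cluster 4, was present in none. Of the 68 symbols in both kinds of table, 34 were present in some group of each, 13 in cultures only and 11 in streak or mesoderm only. Hist1h1b and Hist2h2aa1 were among the latter and Hist1h3h and Hist1h4k among the former, chosen after their values were seen. In cultures 11 members never reached 1 FPKM in a library, among them the testis H1 gene Hist1h1t; in streak and mesoderm 2 did not, Hist1h2aa and the first identifier of Hist2h2bb.

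Presence was also counted by whether an AATAAA poly(A) signal stands behind the stem-loop in the annotated transcript. Of 12 members with one, 5 were present in cultures and 6 in streak or mesoderm. Of 30 members with a stem-loop and no AATAAA behind it, 25 and 23 were present. Of members with no stem-loop in the annotated transcript, 16 of 23 were present in cultures and 14 of 25 in streak or mesoderm. These sets were not matched by class or transcript length. The annotation may stop before a signal, so absence of the letters says only that they are not in the annotated transcript.

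The 10 most abundant members in cultures were all cluster 1 H2A genes. They held 93.4% to 94.4% of the member signal. Hist1h2ao (chr13:21810465-21810944) had 420, 406 and 475 FPKM in wild-type and 672, 703 and 637 FPKM in knock-in libraries. Hist1h2ap (chr13:21833026-21833507) had 376, 386 and 437 FPKM and 619, 708 and 583 FPKM. The positions of Hist1h2ao and Hist1h2ap are those of the section tables. In cultures both symbols stand under another identifier with a wider locus, so these genes are matched by symbol only. In both genes every knock-in library lay above every wild-type library. After them, by mean over the 6 cultures, came Hist1h2an (304 FPKM), Hist1h2aj (300 FPKM), Hist1h2af (268 FPKM), Hist1h2ah (238 FPKM), Hist1h2ad (211 FPKM), Hist1h2ab (151 FPKM), Hist1h2ag (96.2 FPKM) and Hist1h2ae (82.3 FPKM). The order of neighbours such as Hist1h2an and Hist1h2aj falls within their spread over libraries, with SDs of 102 and 92.2 FPKM. Hist1h2aj is annotated as a pseudogene in GENCODE M21, and 93.1% of its 50-base stretches also occur in another gene.

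In sections the order was another. Hist1h2ap led with a median of 266 FPKM (143 to 551), followed by Hist1h2ao with 203 FPKM (116 to 432) and Hist1h2ag with 152 FPKM (85.5 to 347). Hist1h2ac had a median of 124 FPKM (47.9 to 246) and Hist1h2ae one of 57.5 FPKM (40.3 to 258). All 5 code for H2A. Hist1h4d, the only gene of another class among the 10 highest, had a median of 37.8 FPKM and the widest ratio of highest to lowest of the 10, from 2.51 FPKM in the heterozygous streak piece of layer 11 to 100.3 FPKM in the heterozygous mesoderm piece of layer 9. Hist1h2ah, Hist1h2ad, Hist1h2ai and Hist1h2aj completed the list with medians between 31.1 and 40.0 FPKM.

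The gene models behind the 2 kinds of table differ, as in Hist1h2ac. It stood at 8.38 to 16.2 FPKM in cultures and 47.9 to 246 FPKM in sections, and the locus spans 2482 bases in the culture tables and 476 bases in the section tables. Locus width differed between the 2 kinds of table in 39 of the 68 members, by over 1.5 times in 9. For that reason no fold between cultures and sections is given.

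Many H2A genes of these clusters sit head to head with an H2B gene and share the stretch between their starts as a promoter. In the annotation 12 H2A genes had an H2B gene starting 176 to 306 bases away on the other strand. The window of Hist1h2ao in the RefSeq promoter table (GRCm38.p6, chr13:21810117-21810416, plus strand) follows RefSeq's start of Hist1h2ao. It covers the GENCODE start of its neighbour Hist1h2bq (21810197) but not that of Hist1h2ao (21810465). It is shown because Hist1h2ao is the most abundant member in cultures while its neighbour stayed under 1 FPKM there, with the letters CCAAT, or ATTGG on the other strand, in capitals.
Hist1h2ao promoter: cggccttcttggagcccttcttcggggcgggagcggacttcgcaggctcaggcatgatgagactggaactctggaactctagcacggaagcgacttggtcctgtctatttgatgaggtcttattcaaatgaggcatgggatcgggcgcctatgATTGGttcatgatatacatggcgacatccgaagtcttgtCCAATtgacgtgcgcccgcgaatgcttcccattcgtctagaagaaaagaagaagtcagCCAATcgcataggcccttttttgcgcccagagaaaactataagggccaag

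CCAAT, on either strand, occurred in all 17 H2A and all 16 H2B promoters that could be matched, in 10 of 10 H3, 6 of 6 H1 and 3 of 12 H4 promoters, against 37.4% of 32851 promoters of the same length. TATAAA on either strand occurred in 35 of 61 member promoters against 13.6% of all. A match is letters in a window and no measure of binding. Within a pair, windows overlap and are not separate cases.

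On the 2 sides of such promoters the deposited levels were far apart. Across the 6 cultures Hist1h2ao stood at 406 to 703 FPKM and Hist1h2bq at 0.380 to 0.951 FPKM. Hist1h2ap stood at 376 to 708 FPKM and its neighbour Hist1h2br at 0.144 to 0.580 FPKM. Hist1h2bq and Hist1h2br share 97.3% and 88.7% of their 50-base stretches with other genes, so these low values are as uncertain as the split among H2A genes. The H2A gene was the higher in every culture in 10 of the 12 pairs and in all 19 sections in 9. The exceptions in cultures were Hist2h2ac with Hist2h2be, where H2A was higher in 5 of 6 libraries, and Hist1h2aa with Hist1h2ba, where it was higher in 0. Hist1h2ba codes for a testis H2B.

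**Figure D2:**
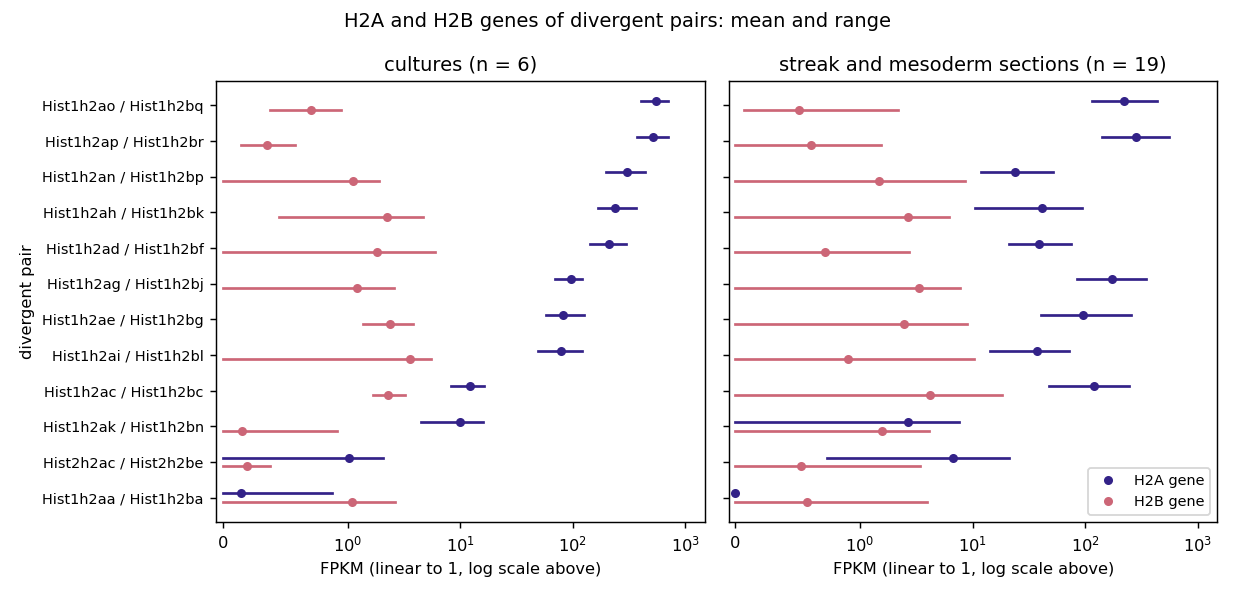
FPKM (linear to 1, log scale above) of the H2A and H2B gene of each divergent pair in 6 cultures and in 19 streak and mesoderm sections; dots are means and lines run from the lowest to the highest library. In the first 9 pairs the H2A gene is the higher in every library of both materials.

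The first comparison asks how the members differed between knock-in and wild-type cultures. They stood mostly higher in the knock-in, and the H2A genes did so together. Summed over the class, H2A had 2027, 2280.2 and 2175 FPKM in the wild-type libraries ordered by replicate, and 3880, 3709 and 2889 FPKM in the knock-in libraries. The groups did not overlap. On the log2(FPKM + 1) scale, with limma over all genes at a mean of 1 FPKM or more and Benjamini-Hochberg adjustment, 18 of 43 members tested were past an adjusted p of 0.05 in the upward direction, where 16.2% of 13133 genes were; 0 were lower, where 16.2% of genes were too. The median change of the 43 members was 0.63 and that of all genes 0.02. The filter took the mean over both groups, so some low members entered only through their knock-in values, which can raise these counts and this median. Of the 43 members, 16 had knock-in libraries all above wild-type ones, a pattern seen in 24.4% of genes, and 0 lay all below, as 24.0% of genes did. Among the 18 called, Hist1h2an and Hist1h2aj overlapped.

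Of the 18, 14 were H2A genes, 3 were H2B and 1 was H3. The H2A changes were alike in size. Hist1h2ao rose by a log2 change of 0.63 ± 0.10 (SE; limma adjusted p = 0.00343), from 434 ± 36.1 to 671 ± 32.8 FPKM (SD, n = 3 each). Hist1h2ap rose by 0.67 ± 0.11 (limma adjusted p = 0.0043), from 399 ± 32.7 to 636 ± 64.4 FPKM (SD, n = 3 each). Hist1h2af had 183, 204 and 186 FPKM in wild-type and 417, 351 and 264 FPKM in knock-in libraries and rose by 0.82 ± 0.17. Hist1h2ai and Hist1h2ah rose by 0.75 ± 0.18 and 0.74 ± 0.18. Hist1h2ad and Hist1h2an rose by 0.69 ± 0.18 and 0.68 ± 0.20. The other cluster 1 H2A genes that rose (Hist1h2aj, Hist1h2ab, Hist1h2ae, Hist1h2ag, Hist1h2ac and Hist1h2ak) and Hist3h2a had log2 changes from 0.51 to 0.86. Of the 14, 11 share over 50% of their 50-base stretches with other genes, so these calls are not independent of each other. Hist1h2ac (14.1%), Hist3h2a (31.5%) and Hist1h2ae (43.2%) share less.

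The largest changes lay in members of low level. Hist1h3c had 0.673, 1.56 and 0.912 FPKM in wild-type and 7.14, 5.77 and 3.81 FPKM in knock-in cultures, a log2 change of 1.67 ± 0.26 (SE; limma adjusted p = 0.00289). Hist1h2bk had 0.503, 0.768 and 0.451 FPKM against 4.68, 4.32 and 2.83 FPKM, a change of 1.64 ± 0.22 (limma adjusted p = 0.00159). All its wild-type values lay under 1 FPKM, so Hist1h2bk passed the filter on the mean only through the knock-in libraries, and its adjusted p is no separate support. Hist3h2ba, an H2B gene of cluster 3, had 1.38, 0.532 and 3.11 FPKM against 9.32, 5.90 and 5.35 FPKM. Its change was 1.64 ± 0.36 (limma adjusted p = 0.0122). In these 3 genes every knock-in library was above every wild-type one. Hist1h2bg, the fourth of the 18 outside H2A, rose by 0.73 ± 0.19 from 1.51 ± 0.117 to 3.22 ± 0.704 FPKM (SD, n = 3 each).

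No H1 or H4 gene passed. Hist1h4i, the H4 gene with the highest mean in cultures, had 4.65, 3.90 and 3.42 FPKM in wild-type and 2.47, 3.11 and 4.77 FPKM in knock-in libraries, and the groups overlap. H1 summed to 4.599 ± 2.06 FPKM in wild-type and 3.29 ± 1.42 FPKM in knock-in cultures (SD, n = 3 each). H4 summed to 17.9 ± 3.32 and 26.3 ± 6.06 FPKM, with overlapping ranges of 14.1 to 19.9 and 19.3 to 30.04 FPKM.

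**Figure D3:**
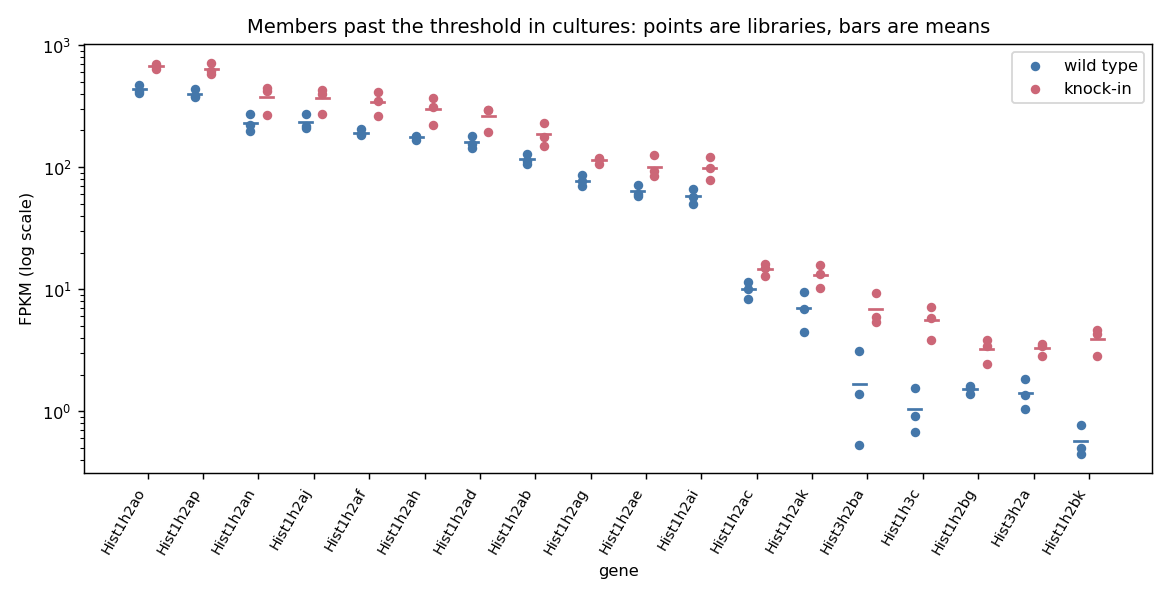
FPKM (log scale) of the 18 members past the threshold in cultures, ordered by mean level; points are libraries and bars group means. Knock-in libraries lie above wild-type ones in 16 members and overlap them in Hist1h2an and Hist1h2aj.

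Library choice moved these counts. Without the first wild-type library 9 members passed, without the second knock-in library 8, without the third wild-type or the first knock-in library 12 each, and with no filter on low genes 8, all of them higher in each case. The file names carry a token of L and a number, and 1 wild-type and 2 knock-in libraries share the number 3. A shared token does not show that libraries were sequenced together. Among these libraries 25 of the 43 members tested were above wild type in both knock-in libraries and 6 below in both, against 39.9% and 43.7% of all genes tested. The median of the mean log2 changes was 0.36 for the 43 members, with a range from -1.36 for Hist1h2bl to 2.11, and -0.03 for all genes. The 18 called members, chosen on these same libraries, included 16 of the 25; Hist1h2an and Hist1h2aj were not above in both.

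Cell-type markers also differed between these cultures. All 7 epiblast markers were higher in the knock-in with no overlap, and their sum ran from 561 to 737 FPKM in wild-type and 1595 to 1844 FPKM in knock-in libraries. A second, low entry of Pou3f1 overlapped, at 0.0813 to 0.141 FPKM in wild-type and 0.107 to 0.126 FPKM in knock-in libraries. Of 6 streak markers 4 were lower, with sums of 293 to 432 and 89.2 to 109 FPKM, and of 8 mesoderm markers 6 were lower, with sums of 266 to 341 and 63.1 to 81.0 FPKM. Visceral endoderm markers summed to 210 to 249 and 270 to 346 FPKM, 3 of 8 being higher. Nearly all of that sum was Apoe, with means of 228 FPKM in wild-type and 294 FPKM in knock-in cultures. Ttr and Afp were at 0 in every culture, and each other marker of this set had a group mean of 0.710 FPKM or less. Trophoblast markers summed to 34.4 to 83.9 and 5.71 to 7.00 FPKM, 3 of 5 being lower and 1 higher, and feeder fibroblast markers to 7.14 to 15.9 and 18.4 to 21.3 FPKM, 4 of 5 being lower and 1 higher. The fibroblast marker that was higher was Thy1, with means of 3.38 FPKM in wild-type and 18.1 FPKM in knock-in cultures. Col1a1, the most abundant of those that were lower, had means of 6.81 and 1.65 FPKM. Blood markers were at most 1.12 FPKM in sum. The part of cell composition in the histone values was not tested, and in bulk RNA more cells of a type cannot be told apart from more RNA per cell.

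Genes that work with the clustered histones were read from 6 lists in the same fit, in which 16.2% of all genes were higher and 16.2% lower. A count near that share says nothing particular of a list. Among 11 histone genes outside the clusters, listed as polyadenylated without a check of each gene, limma placed 5 above and 1 below wild type, with a median change of 0.13. H2afx, the variant phosphorylated at DNA breaks, rose from 414 ± 6.75 to 755 ± 13.7 FPKM (SD, n = 3 each; limma adjusted p = 0.000548). H1f0, a linker histone of cells that leave the cycle, rose by 1.14 ± 0.34, and H2afj by 0.82 ± 0.15. H2afy, which codes for macroH2A1, fell by 1.30 ± 0.19.

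Among 13 histone chaperones 4 were higher and 0 lower, with a median of 0.41. Nasp, which binds H3 and H4 and H1, rose from 65.7 ± 10.4 to 150 ± 18.8 FPKM (SD, n = 3 each; limma adjusted p = 0.00135). Daxx, a chaperone of H3.3, rose by 0.57 ± 0.15, Rbbp4 by 0.52 ± 0.16 and Chaf1b, a subunit of CAF-1, by 0.41 ± 0.13. Of 15 factors of histone mRNA 3′ end processing 1 was higher, Coil (0.50 ± 0.14), and 0 lower, with a median of 0.13.

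The histone mRNA decay list had 0 of 7 past the threshold in limma, 3 at an unadjusted p under 0.05, and a median of -0.31; its 2 most abundant genes, Upf1 and Zcchc11, had log2 changes of -0.34 ± 0.12 and -0.00 ± 0.15. S phase genes did not move as a block. Of 22 tested, 4 were higher and 2 lower, with a median of 0.08. Ccne1, a cyclin of the entry into S phase, rose by 0.87 ± 0.20 and E2f1, which drives S phase genes, by 0.64 ± 0.16. Mcm2, a subunit of the replicative helicase, fell by 0.46 ± 0.11, whereas Mcm7, another subunit, rose by 0.46 ± 0.13. Of 15 mitosis genes 4 were higher and 0 lower, with a median of 0.26; they were Top2a (0.75 ± 0.23), Aurka (0.56 ± 0.13), Ube2c (0.53 ± 0.13) and Bub1b (0.48 ± 0.15). The median of all genes tested was 0.02.

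The next comparisons ask how members differed between homozygous and heterozygous sections. In streak, limma called 0 of 42 members, with 3 at an unadjusted p under 0.05 and a lowest adjusted p of 0.328; 0.0201% of 9932 genes were called. In mesoderm it called 0 of 36, with 4 under 0.05 and a lowest adjusted p of 0.205; 0.196% of 8695 genes were called. With both regions in 1 fit, 1 of 41 members was higher and 0 lower, where 1.13% of 9527 genes were higher, 0.115% lower and 1.25% either. In that fit the genotypes overlapped in all 41 members; 0.0210% of genes lay wholly above and 0.0105% wholly below. The median change over members was -0.09 in streak, -0.26 in mesoderm and -0.16 in both, against 0.25, 0.31 and 0.24 over all genes; after scaling by median ratio the median of all genes came to 0.04, 0.03 and 0.04 and that of the members to -0.34, -0.58 and -0.36.

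The member called was Hist2h3b, an H3 gene of cluster 2 (chr3:96268654-96269141). In streak it had 24.3, 32.2, 15.7, 5.41, 11.9 and 0.851 FPKM in the heterozygous layers 1, 3, 5, 7, 9 and 11, and 47.3, 30.8, 21.6, 34.7 and 13.0 FPKM in the homozygous layers 1, 5, 7, 9 and 11. In mesoderm it had 18.0, 2.02 and 0 FPKM in heterozygous layers 7, 9 and 11, and 34.3, 21.4, 18.4, 20.0 and 23.8 FPKM in homozygous layers 3, 5, 7, 9 and 11. The genotypes overlapped in streak. In mesoderm every homozygous piece was above every heterozygous one, as for 8.60% of genes there. Hist1h4i was the only member with every homozygous mesoderm piece below the heterozygous ones, as for 1.06% of genes. The log2 change of Hist2h3b in the joint fit was 1.73 ± 0.39 (SE; limma adjusted p = 0.0317), from 12.3 ± 11.3 (n = 9) to 26.5 ± 10.2 FPKM (SD, n = 10).

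That call was not steady. The adjusted p rose over 0.05 in the joint limma fit without the homozygous streak piece of layer 9 (0.071), in 8 of the 18 other fits that left out 1 library, with a pseudocount of 0.1 (0.0664), with no filter (0.126) and with sections of the same region and layer as a block (0.0605), and the change stayed upward in each. Hist2h3b shares 79.7% of its 50-base stretches with other H3 genes. Its neighbours in cluster 2 did not pass: Hist2h3c2 had 10.1 ± 6.53 and 14.8 ± 8.57 FPKM in heterozygous and homozygous streak (SD, n = 6 and 5).

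Hist1h2ae and Hist1h1e lay on the other side. Hist1h2ae had 56.4 to 258 FPKM (median 134) in 6 heterozygous streak pieces and 47.9 to 133 FPKM in homozygous ones, where 4 of 5 were at 54.1 FPKM or less. In mesoderm it had 89.4, 189 and 57.5 FPKM against 58.8, 41.4, 43.1, 40.3 and 53.2 FPKM. The joint change was -1.07 ± 0.29 (limma adjusted p = 0.0588). Hist1h1e, a linker histone gene, had 1.80 to 24.3 FPKM in heterozygous and 2.28 to 14.1 FPKM in homozygous pieces, with a change of -1.25 ± 0.34 (limma adjusted p = 0.0623). In both genes the groups overlapped. After scaling by median ratio 4 members were past the threshold as lower.

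**Figure D4:**
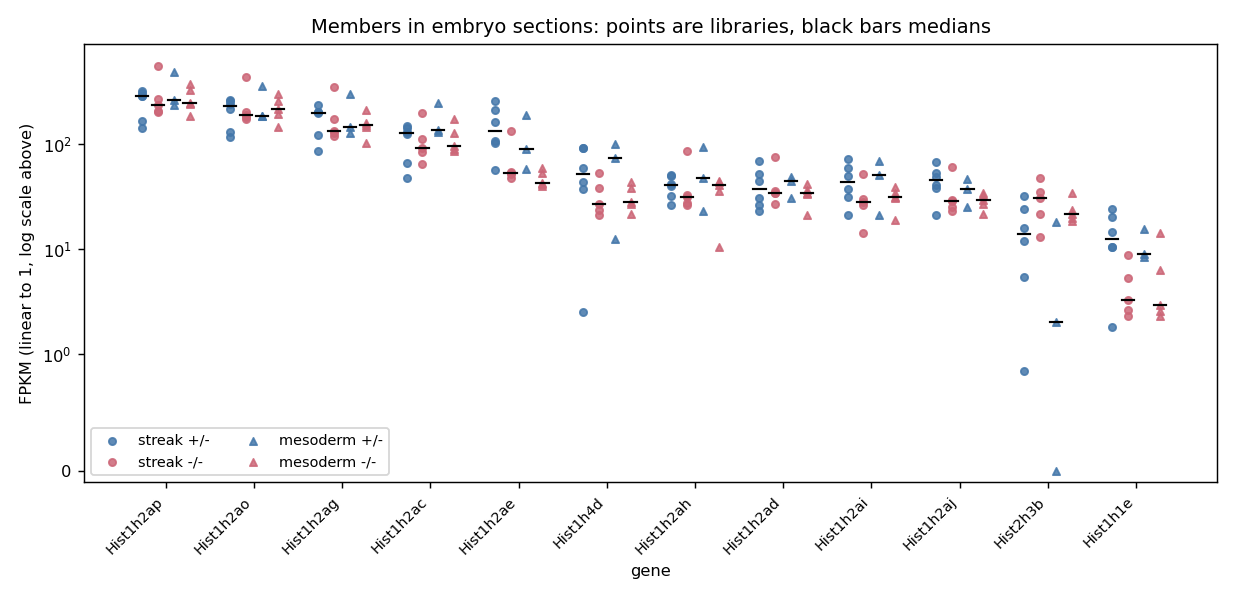
FPKM (linear to 1, log scale above) of the 10 most abundant members in sections and of Hist2h3b and Hist1h1e; each point is a streak or mesoderm piece and black bars are group medians. Genotypes overlap in most genes; homozygous mesoderm lies above heterozygous mesoderm in Hist2h3b.

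Whether the genotype difference itself differed between regions was tested as an interaction. limma called 0 of 41 members and 0 of 9527 genes; 2 members, Hist1h2bm and Hist1h4i, and 337 genes had an unadjusted p under 0.05. The smallest adjusted p of a member was 0.999. In the 6 lists of partner genes, limma called 0 in streak, in mesoderm and in the interaction, and 1 in the joint fit: Supt16, a subunit of the FACT chaperone, which rose from 15.3 ± 5.06 to 32.9 ± 8.70 FPKM (SD, n = 9 and 10; adjusted p = 0.00896).

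Other measures differed between the genotypes too. In mesoderm 7025 to 8057 genes reached 1 FPKM in heterozygous and 8420 to 9403 in homozygous pieces, with no overlap, the same split as for Hist2h3b. In streak these ranges were 6806 to 10959 and 9488 to 10559 genes. Mitochondrial genes took 3.92% to 5.53% of FPKM in heterozygous and 2.25% to 3.21% in homozygous streak, with no overlap, and 3.38% to 5.42% and 2.03% to 2.97% in mesoderm. The symbol Yam1 alone took 1.76% to 19.4% of all FPKM in heterozygous and 6.00% to 10.5% in homozygous streak. In mesoderm it took 1.07% to 33.1% and 7.32% to 22.2%, so the genotypes overlapped in both regions while single pieces differed widely. Epiblast markers summed to 67.8 to 182 and 159 to 338 FPKM in streak, 1 of 7 being higher with no overlap, and to 18.4 to 73.3 and 63.3 to 177 FPKM in mesoderm, 2 of 7 being higher. Streak markers in mesoderm pieces summed to 12.8 to 40.9 and 65.7 to 86.5 FPKM, 4 of 6 being higher. Visceral endoderm markers summed to 41.8 to 360 and 49.5 to 1495 FPKM in streak, and to 48.7 to 129 and 85.9 to 952 FPKM in mesoderm, 2 of 8 being higher. Their part in the histone values was not tested.

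The comparison of mesoderm with streak used the 7 pairs of pieces that share genotype and layer. limma called 0 of 39 members higher and 1 lower, where 0.579% of 9146 genes were higher, 8.04% lower and 8.62% either. The median change was -0.15 for members and -0.34 for all genes; after scaling by median ratio these were 0.23 and 0.00, and 35 genes were higher and 28 lower in place of 53 and 735. The regions overlapped in all 39 members, whereas 0.809% of genes lay wholly lower in mesoderm. Hist1h2bg, an H2B gene (chr13:23571408-23571884) whose H2A neighbour is Hist1h2ae, had 0 to 8.84 FPKM in the 7 streak pieces and 0 to 1.65 FPKM in the 7 mesoderm pieces. The homozygous mesoderm piece of layer 3, which has no streak partner and did not enter the fit, had 5.50 FPKM. Over the 7 pairs its means were 3.12 ± 2.82 and 0.525 ± 0.690 FPKM (SD, n = 7 each), and its change was -1.27 ± 0.31 (SE; limma adjusted p = 0.0304). The 2 sets overlapped. The mesoderm mean of Hist1h2bg lay under 1 FPKM, so the gene passed the filter only through the streak pieces. Its adjusted p is therefore no separate support. With libraries scaled by median ratio its adjusted p was 0.148, and it passed in neither genotype alone (0.63 in heterozygous and 0.0787 in homozygous pairs).

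Hist1h1b had 2.27 to 25.97 FPKM in those streak and 0 to 15.7 FPKM in mesoderm pieces (-0.76 ± 0.24; limma adjusted p = 0.0687). The abundant H2A genes did not pass. Hist1h2ae had 103 ± 66.7 and 73.4 ± 53.6 FPKM (SD, n = 7 each; -0.45 ± 0.22; limma adjusted p = 0.205).

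The partner lists were read from the same unscaled fit, and their calls after scaling were not computed. Among the 11 histone genes listed as polyadenylated 3 were lower and 1 higher. H2afz, the H2A.Z gene, fell from 480 ± 138 to 275 ± 90.6 FPKM and H3f3b, which codes for H3.3, from 290 ± 100 to 157 ± 68.2 FPKM (SD, n = 7 each). H3f3a, a second H3.3 gene, fell from 121 ± 33.1 to 82.2 ± 29.9 FPKM (SD, n = 7 each), and H2afy2 rose by 0.86 ± 0.24. In the list of 3′ end processing 2 of 12 were lower, Slbp, from 39.6 ± 18.3 to 20.0 ± 7.37 FPKM, and Cstf2, a cleavage factor subunit. Of 21 S phase genes 3 were lower: Cdc6 (-1.10 ± 0.26), Slbp again and Rrm2 (-0.76 ± 0.17), the ribonucleotide reductase subunit. Of 14 chaperones 2 were lower, Asf1a (-0.87 ± 0.20) and Nasp (-0.86 ± 0.18), of 15 mitosis genes 1, Ccnb2 (-0.95 ± 0.21), and of 5 decay genes 0. The medians of the 6 lists ran from -0.33 to -0.57, against -0.34 for all genes.

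Along the layers no member passed. In streak, limma called 0 of 42 members for a trend with layer number, 9 at an unadjusted p under 0.05, where 0.0805% of 9932 genes were called, 0.0101% as rising; in mesoderm it called 0 of 36, 3 under 0.05, where 0.0115% of 8695 genes were called. Hist3h2ba (chr11:58948920-58949533) had the lowest p in both regions. In heterozygous streak it had 55.6, 18.5, 9.31, 9.23, 9.01 and 0 FPKM from layer 1 to layer 11, and in homozygous streak 28.8, 9.34, 13.5, 19.8 and 1.03 FPKM from layer 1 to 11, without layer 3. In mesoderm it had 6.63, 1.40 and 2.84 FPKM in heterozygous layers 7 to 11 and 20.7, 3.01, 2.12, 1.23 and 1.78 FPKM in homozygous layers 3 to 11. The lowest layer number was the highest piece in each genotype of both regions. With layer 1 set aside, homozygous streak showed no steady order (9.34, 13.5, 19.8 and 1.03 FPKM). The 0 FPKM of heterozygous layer 11 came from the section with the fewest genes at 1 FPKM or more (6806). The slope in streak was -0.37 ± 0.08 per layer number on the log2(FPKM + 1) scale (SE; limma adjusted p = 0.0829; 0.0345 without the homozygous piece of layer 9), and in mesoderm -0.32 ± 0.10 (adjusted p = 0.844), where it was -0.14 without the homozygous piece of layer 3.

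Hist1h4c (-0.25 ± 0.06; limma adjusted p = 0.0983), Hist2h3b (-0.25 ± 0.06; 0.108), Hist1h1a (-0.25 ± 0.07; 0.122) and Hist3h2a (-0.20 ± 0.05; 0.125) came next in streak. Hist3h2a is the H2A neighbour of Hist3h2ba in cluster 3. The abundant H2A genes followed no such order: Hist1h2ao had 116, 131, 262, 216, 258 and 241 FPKM from layer 1 to 11 of heterozygous streak and 203, 174, 181, 432 and 191 FPKM in homozygous streak.

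**Figure D5:**
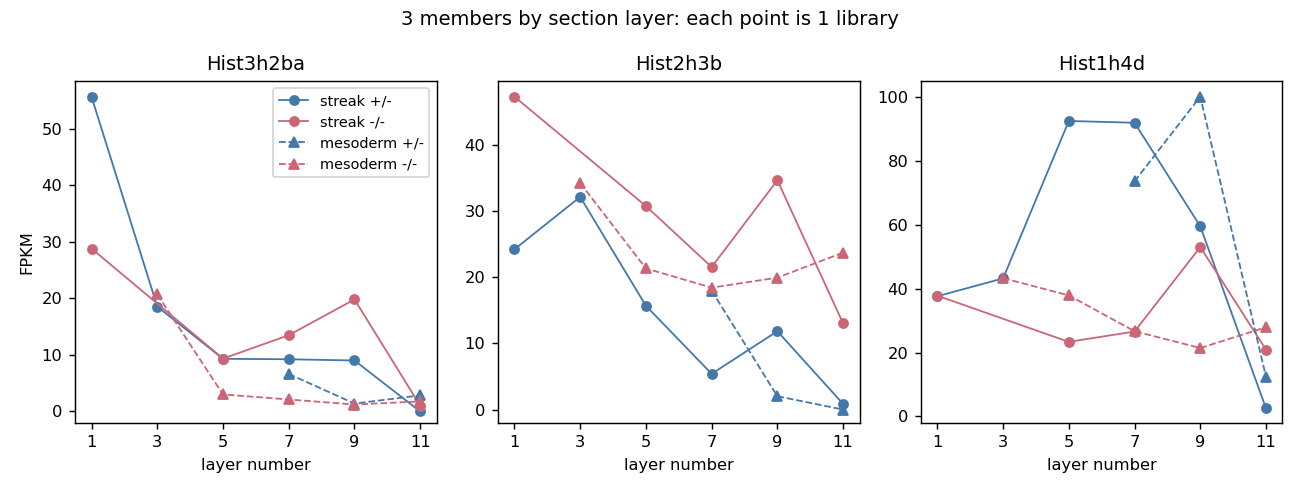
FPKM of Hist3h2ba, Hist2h3b and Hist1h4d against the layer number of the section, 1 point per library, for streak and mesoderm of each genotype. Hist3h2ba is highest in the lowest layer of each series, and Hist1h4d drops to 2.51 FPKM in the heterozygous streak piece of layer 11.

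The anterior epiblast pieces, 1 per genotype, allow no test. Hist3h2ba had 30.2 FPKM in the heterozygous and 32.5 FPKM in the homozygous piece, within the range of the streak (0 to 55.6 FPKM). The H2A sum was 2085 FPKM in the heterozygous and 673 FPKM in the homozygous piece, the second below every streak and mesoderm piece (677 to 2110 FPKM). Hist1h2ap followed it with 503 and 179 FPKM, Hist1h4d with 85.05 and 15.2 FPKM and Hist1h1e with 16.9 and 0.229 FPKM. Hist2h3b had 30.7 and 18.5 FPKM there, the heterozygous piece being the higher. Yam1 took 29.3% of all FPKM in the heterozygous and 5.96% in the homozygous epiblast piece, and its part in these values was not tested.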

How the data were processed

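Each library has 1 deposited table of FPKM per gene, with an interval around every value. Per the submitters' processing notes, CASAVA, TopHat2 2.0.11 and mm10 were used; the tool that made the values and its gene models are not given in the sources used here. Section loci are in mm10; culture loci disagree with that build and are not printed. Values under 1e-06 FPKM were set to 0 and repeated identifiers added. Tests used log2(FPKM + 1), genes at a mean of 1 FPKM or more, limma 3.58.1 in R 4.3.3 (two-sided, Benjamini-Hochberg, threshold 0.05), with genotype fits adjusted for layer and the region fit blocked by genotype and layer.

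Groups came from the labels; 7 of 34 samples were left out, 4 without a table and 3 with conflicting region labels. Members, gene lists and the rule for named genes (the 10 highest members in cultures and in sections, members past the threshold, and up to 4 genes per list) were chosen with earlier results of these data known. The fit was tested on simulated data. Sequence scans used GENCODE M21 and RefSeq tables, Python 3.11.15. Alternatives changed the pseudocount (0.1), the filter (none, 5 FPKM), scaling, libraries, layer blocks and the detection limit (0.5, 5).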

Additional observations from a re-analysis of the deposited data

Results flagged for a closer look

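In 75 tests, 25 measures in each of 3 groups of 5 or 6 sections, 12 had a library whose gap to the next one was large against the range of its group on the log2(FPKM + 1) scale; chance flags about 1 in 20 such groups. The 12 are not independent, since H2A genes share reads. Of the 12, 7 are the homozygous streak piece of layer 9 standing high. It had 75.0 FPKM of Hist1h2ad against 26.7 to 35.4 FPKM in the other 4 pieces, 133 FPKM of Hist1h2ae against 47.9 to 54.1 FPKM and 85.6 FPKM of Hist1h2ah against 26.01 to 32.9 FPKM. Hist1h2aj stood at 60.5 FPKM there against 22.8 to 29.4 FPKM, Hist1h2ao at 432 FPKM against 174 to 203 FPKM and Hist1h2ap at 551 FPKM against 203 to 268 FPKM. The H2A sum was 2110 FPKM against 792 to 1006 FPKM. That piece also has the largest total of all FPKM among the 19 sections (376860).

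The heterozygous streak piece of layer 11 stood low in 3 measures: 2.51 FPKM of Hist1h4d against 37.7 to 92.6 FPKM, 4.08 FPKM of summed H1 against 29.3 to 75.5 FPKM and 10.4 FPKM of summed H4 against 64.4 to 124 FPKM. It lists the fewest genes at 1 FPKM or more of the 19 (6806). In homozygous mesoderm the piece of layer 7 had 10.4 FPKM of Hist1h2ah against 35.9 to 44.5 FPKM, and the piece of layer 3 had 20.7 FPKM of Hist3h2ba against 1.23 to 3.01 FPKM.

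A heterozygous section whose title names mesoderm and whose label names streak, both at layer 7, entered no comparison. Its members summed to 2471 FPKM, above the 949 to 2190 FPKM of the 9 heterozygous streak and mesoderm pieces.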

How the results depend on the processing

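No named gene changed sign under the alternatives run on it, but after scaling by median ratio the members' median change for mesoderm against streak went from -0.15 to 0.23, and the joint genotype fit called 1 higher and 4 lower in place of 1 and 0. For knock-in against wild-type cultures, 18 members became 8 with no filter and 8 to 18 when a library was left out; 19 passed with the replicate block. For both regions together, the 1 member of the joint genotype fit became 0 with a pseudocount of 0.1, 0 with no filter, 3 at a mean of 5 FPKM, 5 after scaling by median ratio, 0 with the replicate block by layer, 4 or 3 with conflicting sections added by title or by label, and 0 to 3 without a library. For mesoderm against streak, the 1 member became 0 with no filter, at 5 FPKM, after scaling, in heterozygous or homozygous pairs alone, and 0 to 1 without a library. Counts of 0 became 1 in mesoderm genotype without the heterozygous piece of layer 7 (range 0 to 1) and in the streak trend without the homozygous piece of layer 9 (range 0 to 1). Except for the filter, which changes how many genes are tested, the cause was not tested.

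Members present moved most with the limit. At 0.5 FPKM wild-type cultures had 50. At 5 FPKM the counts were 13 and 16 in wild-type and knock-in cultures, 24 and 19 in heterozygous and homozygous streak, 17 and 18 in mesoderm and 20 in homozygous epiblast. At 1 FPKM in every library there were 28 in knock-in cultures, 21 in heterozygous streak and 22 in heterozygous mesoderm. A deposited interval above 0 left 20, 27 and 22 in wild-type and knock-in cultures and heterozygous mesoderm. Leaving out a library in turn for these counts was added after seeing the data and kept each within 1.5 times.

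Same-numbered cultures correlated at -0.12, -0.05 and -0.05, and same-layer pieces of the 2 genotypes at 0.02 to 0.48 in streak and 0.01 to 0.04 in mesoderm, so not every pair passes 0.1. The layer number is a position; the layer 1 streak pair had the 0.48, and each of those pieces had a negative correlation with the other genotype's other layers. The block by layer moved no other count by over 1.5 times. Read depth is unknown, so no counting floor is given for members near 0.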
